A study of Homo sapiens with 6 samples.

Results

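ZNF genes outside chromosome 19 were followed in the established human prostate cancer line DU145 after treatment with CCS1477 (inobrodib), an inhibitor of the bromodomains of the acetyltransferases p300 and CBP. Members were the genes whose symbol is ZNF followed by a number and at most 1 letter, on chromosomes 1 to 22 except 19, whose description does not call them pseudogenes and whose counts summed to at least 60 over the 6 libraries. This gave 216 genes of the 60623 in the table. Of 251 genes that met the name and position criteria, 35 fell short of the count, and 21 of those had no count in any library. Just outside the minimum lay ZNF853, ZNF300 and ZNF785 with summed counts of 28, 30 and 35, and just inside it lay ZNF660, ZNF596 and ZNF624 with 67, 67.3 and 96.

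Cells given 1 µM CCS1477 for 24 h were compared with cells given the solvent DMSO, with 3 poly-A RNA-seq libraries each, all from the same wild-type line grown in serum-containing RPMI-1640. The labels do not say whether the libraries came from separate cultures, so a p-value here reflects the variation among these 6 samples alone, which may be technical. DU145 is a single long-cultured line of prostate cancer. The prostate luminal markers KLK3 and FOLH1 had no count in any library. The luminal marker TMPRSS2 averaged 0.177 TPM (a level corrected for transcript length) in CCS1477 and 0.04 TPM in DMSO. The epithelial markers KRT8, KRT18, EPCAM and CDH1 summed to 1698 to 1807 TPM in CCS1477 and 1733 to 1890 TPM in DMSO. CDH1 alone of these was called, with a log2 fold change of -1.17. Of 7 markers of leukocytes, endothelium, fibroblasts and neuroendocrine cells, PTPRC, PECAM1 and COL3A1 were at 0, and the 7 together summed to 36.0 to 43.4 TPM in CCS1477 and 45.8 to 72.4 TPM in DMSO. CD68 was lower among them, with -0.56. The part of these genes in the results was not tested.

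C2H2 zinc finger proteins form the largest class of human transcription factors, and each finger contacts a few bases of DNA. Many also carry a KRAB box, which recruits the corepressor TRIM28 and, through it, the histone methyltransferase SETDB1, heterochromatin proteins of the CBX family and DNA methylation, often over transposable elements. KRAB genes arose by tandem duplication and lie in clusters, the largest of them on chromosome 19, while the genes elsewhere also include old single-copy factors that bind promoters, RNA or ribosomes, or that recruit other corepressors. p300 and CBP are coactivators whose bromodomains bind acetylated lysines at enhancers and promoters.

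Promoters were looked at first for members past the threshold described below, since genes with a common change might carry common letters. RefSeq's GRCh38.p14 table held a promoter for 181 of the 216 members. The 6 shown are the 250 bases before the RefSeq start of 4 members that rose and 2 that fell. RefSeq starts can differ from the gene coordinates of the deposited table, which are those given with each gene. Along the gene, the RefSeq start lay 16068 bases after the deposited one for ZNF217, 324 for ZNF532, 56 for ZNF92 and 13 for ZNF678, and 152 bases before it for ZNF503. The stretches of ZNF217 and ZNF532 thus lie wholly inside the deposited gene. They lie at chr7:65373605-65373854 (plus strand) for ZNF92, chr1:227563306-227563555 (plus strand) for ZNF678, chr7:149838125-149838374 (plus strand) for ZNF862, chr10:75401917-75402166 (minus strand) for ZNF503, chr20:53593840-53594089 (minus strand) for ZNF217 and chr18:58862674-58862923 (plus strand) for ZNF532. Each is written 5′ to 3′ along the gene, and capitals mark every match to the 10 motifs listed after them, on either strand.
ZNF92: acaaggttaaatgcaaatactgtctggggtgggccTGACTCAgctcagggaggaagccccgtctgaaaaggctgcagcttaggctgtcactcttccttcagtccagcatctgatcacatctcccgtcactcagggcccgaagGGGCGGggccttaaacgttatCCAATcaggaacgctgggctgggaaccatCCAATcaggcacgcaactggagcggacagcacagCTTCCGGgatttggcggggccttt
ZNF678: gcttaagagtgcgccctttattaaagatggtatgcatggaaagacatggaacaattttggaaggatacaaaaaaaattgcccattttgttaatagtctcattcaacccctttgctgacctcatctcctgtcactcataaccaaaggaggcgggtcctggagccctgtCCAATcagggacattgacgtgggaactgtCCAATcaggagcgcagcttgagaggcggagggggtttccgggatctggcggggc
ZNF862: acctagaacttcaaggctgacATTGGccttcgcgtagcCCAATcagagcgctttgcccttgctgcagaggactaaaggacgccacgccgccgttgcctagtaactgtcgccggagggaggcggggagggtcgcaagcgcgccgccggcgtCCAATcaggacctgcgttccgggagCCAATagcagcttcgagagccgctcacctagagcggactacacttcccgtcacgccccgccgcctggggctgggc
ZNF503: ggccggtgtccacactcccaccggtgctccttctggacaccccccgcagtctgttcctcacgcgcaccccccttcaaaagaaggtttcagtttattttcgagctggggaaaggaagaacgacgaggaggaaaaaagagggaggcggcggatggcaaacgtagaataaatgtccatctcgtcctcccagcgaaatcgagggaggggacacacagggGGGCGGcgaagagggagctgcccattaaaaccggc
ZNF217: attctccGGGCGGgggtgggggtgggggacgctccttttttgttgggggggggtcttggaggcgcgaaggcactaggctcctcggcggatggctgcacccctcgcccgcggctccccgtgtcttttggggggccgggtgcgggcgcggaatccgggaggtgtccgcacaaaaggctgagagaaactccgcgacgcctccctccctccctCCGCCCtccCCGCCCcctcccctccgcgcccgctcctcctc
ZNF532: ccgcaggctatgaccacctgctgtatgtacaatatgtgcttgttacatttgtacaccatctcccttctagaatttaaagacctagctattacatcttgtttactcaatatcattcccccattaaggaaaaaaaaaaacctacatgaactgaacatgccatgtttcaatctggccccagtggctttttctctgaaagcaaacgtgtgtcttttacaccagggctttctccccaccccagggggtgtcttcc

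The motifs searched on both strands were the GC box GGGCGG, the ETS core CCGGAAG, the NRF1 half-element GCATGCGC, the YY1 element AAGATGGC, the core ACTACAA of sites of ZNF143 and ZNF76, the cyclic AMP response element TGACGTCA, the AP-1 element TGANTCA, the CCAAT box CCAAT, the E-box CACGTG and the TATA box TATAAA. Matches were allowed to overlap each other. Among the members that rose, ZNF92 and ZNF678 each had a pair of CCAAT boxes on the printed strand, starting 87 and 58 bases before the RefSeq start of ZNF92 and 83 and 54 bases before that of ZNF678, and in both genes each box ran on into the letters cagg. ZNF862 had 4 CCAAT boxes. ZNF503 held 1 GC box, ZNF217 held 3, and ZNF532 had no match to any of the 10.

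Of the 10 motifs, the ETS core differed most in share between members and tested genes. It stood in 30.9% of the 181 member promoters, in 16.1% of the 10576 promoters of tested genes and in 8.82% of all 27305 promoters of the table. Among members it was in 2 of 12 promoters of genes that rose (16.7%), 0 of 3 of genes that fell and 53 of 165 of genes that were not called (32.1%). The CCAAT box was in 43.6% of member promoters and 34.8% of those of tested genes, and it stood in 6 of 12 promoters of members that rose, 0 of 3 of members that fell and 72 of 165 of the rest (43.6%). The GC box was less frequent in members (60.8%) than in tested genes (68.3%), and the TATA box was rare in both (3.87% and 5.01%). The core of ZNF143 and ZNF76 sites was in 10 member promoters (5.52%), against 3.53% of those of tested genes. Differences in these shares were not tested, and a match to letters is not a binding site.

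Most ZNF genes were expressed at low levels. Over all 6 libraries the median member had 8.53 TPM and the middle 50% lay between 4.65 and 16.9 TPM. Of the 216 members, 212 averaged at least 1 TPM, 91 at least 10 TPM and 8 at least 50 TPM. The 6 highest were ZNF207, a microtubule-binding protein that loads the checkpoint protein BUB3 onto kinetochores, at 134.0 TPM, ZNF664 at 89.7, ZNF511 at 74.3, ZNF593, whose yeast relative acts in ribosome biogenesis, at 68.6, ZNF638, a nuclear RNA- and DNA-binding protein linked to silencing of retroviral DNA, at 67.1, and the small protein ZNF706 at 54.4 TPM. ZNF207 had 159, 137 and 134 TPM in the CCS1477 libraries, against 128, 149.8 and 96.3 TPM in the DMSO libraries. ZNF664 had 85.1, 97.8 and 81.7 TPM in the CCS1477 libraries, against 104, 83.1 and 86.0 TPM in the DMSO libraries. The groups overlapped for both genes, and the order of ZNF511, ZNF593 and ZNF638 was within the spread of their libraries. None of the 6 passed the threshold, with log2 fold changes from -0.17 (SE 0.21) for ZNF593 to 0.18 (SE 0.11) for ZNF207.

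Together, the 216 members took 0.655%, 0.656% and 0.639% of the counts in the CCS1477 libraries, against 0.589%, 0.613% and 0.579% in the DMSO libraries. Each CCS1477 library was above each DMSO library. In TPM the members summed to 3153 ± 11.6 in CCS1477 and 2856 ± 194 in DMSO (SD, n = 3 each), with DMSO 3 the lowest library at 2638. In CPM, counts scaled to library size with TMM factors, the sums were 6448, 6425 and 6349 in CCS1477, against 6004, 6260 and 5888 in DMSO. In such bulk samples, fewer cells of a type and less RNA per cell cannot be told apart.

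The response of the family to CCS1477 was small. By the quasi-likelihood test of edgeR, adjusted after Benjamini and Hochberg over all tested genes at 0.05, 13 of 214 tested members were higher (6.07%), where 7.23% of all 14928 tested genes were higher. Of the members 6 were lower (2.8%), where 10.7% of all tested genes were lower. The remaining 195 were not called, and ZNF596 and ZNF660 were too low to test. Log2 fold changes ran from -0.93 to 0.94 with a median of 0.08, against -0.0030 over all tested genes. No member's fitted change exceeded 2-fold, while that of 854 of all 14928 tested genes did. Of all tested genes 625 (4.19%) were called with such a change. The 95% interval of the fold change lay within 2-fold in either direction for 197 members (92.1%), against 76.4% of all tested genes and 87.7% of the 4898 genes between the members' quartiles of mean level, 8.35 and 38.3 CPM.

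The shift of the members was a tilt to small positive values. Log2 fold changes were above 0 for 138 of 214 members (64.5%), against 49.6% of all tested genes. The 3 CCS1477 libraries were all above the 3 DMSO libraries for 41 of 214 members, a share near the 16.5% of all tested genes. They were all below for 14 of 214, where 19.3% of all tested genes were. At an unadjusted p under 0.05 there were 44 members (20.6%), against 31.7% of all tested genes. The median stayed between 0.07 and 0.15 under every scaling, filter, test and left-out library tried. That of all tested genes ran from -0.0063 without CCS1477 3 to 0.062 on log2(TPM + 0.1). The counts were less steady: without DMSO 1 there were 5 higher and 3 lower members, without DMSO 3 there were 16 and 8, and without CCS1477 1, 2 or 3 there were 7 higher each time and 4, 3 and 3 lower. Without DMSO 2 there were 12 higher and 4 lower. Counts over all tested genes moved as well, from 1079 higher and 1597 lower with every library kept. Without DMSO 1, 2 and 3 they were 555, 1090 and 1311 higher and 973, 1532 and 1772 lower. Without CCS1477 1, 2 and 3 they were 731, 489 and 487 higher and 1169, 925 and 1042 lower. With limma on either TPM scale, log2(TPM + 1) or log2(TPM + 0.1), 2 of the 19 calls remained, those of ZNF76 and ZNF503.

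**Figure D1:**
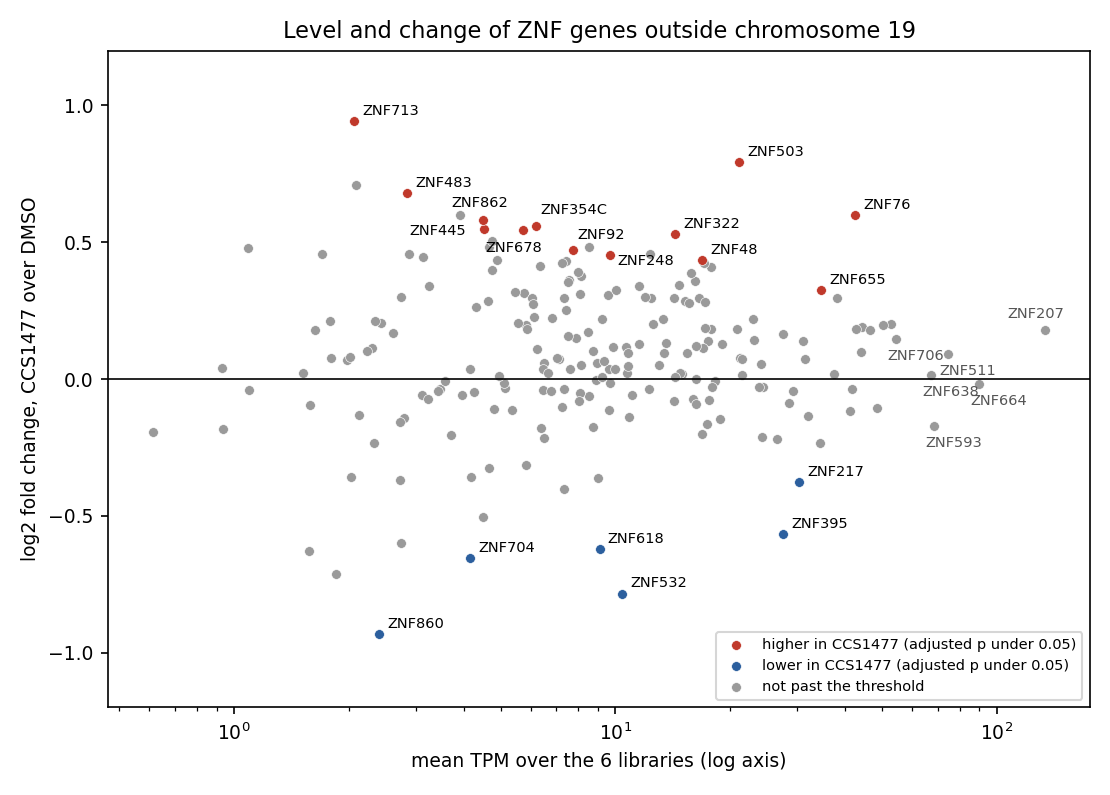
Mean TPM of each tested ZNF gene outside chromosome 19 over the 6 libraries (x, log axis) against its log2 fold change, CCS1477 over DMSO (y). Red points are the 13 members higher in CCS1477 and blue points the 6 lower, all between -0.93 and 0.94, and grey points are not past the threshold, among them the 6 most abundant members.

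The rise with the smallest adjusted p was that of ZNF76, a close relative of ZNF143 that binds the same promoter elements and activates transcription of coding and small nuclear RNA genes. ZNF76 (ENSG00000065029, chromosome 6, 35258909 to 35295985) had 61.9, 64.7 and 70.2 CPM in the CCS1477 libraries, against 39.7, 42.3 and 48.0 CPM in the DMSO libraries. Every CCS1477 library was above every DMSO library. The log2 fold change was 0.60 (adjusted p = 0.00296, SE 0.11). Its TPM were 53.3 ± 3.83 in CCS1477 and 31.9 ± 3.11 in DMSO. ZNF143 itself had 24.99 ± 3.00 CPM in CCS1477 and 26.5 ± 0.925 CPM in DMSO, with a log2 fold change of -0.09 (adjusted p = 0.688, SE 0.13). ZNF76 and ZNF503 were the 2 members whose call held in all 15 other scalings, tests, filters and left-out libraries run. The adjacent gene PPARD fell by 0.59 on the log2 scale (adjusted p = 0.00172).

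ZNF503, a developmental corepressor of the NET family that acts in striatal and other embryonic tissues, had 50.4, 60.7 and 67.6 CPM in the CCS1477 libraries, against 41.4, 26.0 and 35.9 CPM in the DMSO libraries. The libraries spread widely but did not overlap between groups. ZNF503 (ENSG00000165655, chromosome 10, 75397830 to 75401764) rose 1.73-fold, with a log2 fold change of 0.79 (adjusted p = 0.00685, SE 0.17). Its relative ZNF703, an oncogene of luminal breast cancer, was low at 4.56 ± 0.927 CPM in CCS1477 and 3.33 ± 1.31 CPM in DMSO and had a log2 fold change of 0.46 (adjusted p = 0.391, SE 0.34). ZNF503 overlaps its antisense transcript ZNF503-AS2, whose counts came to 9.53% of those of ZNF503. The strand setting of the counting is not given in the sources used here, so reads of overlapping genes cannot be told apart.

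ZNF445, a KRAB protein that maintains methylation at imprinted regions together with ZFP57, had 47.0, 41.2 and 38.3 CPM in the CCS1477 libraries, against 29.2, 31.6 and 25.5 CPM in the DMSO libraries. The groups did not overlap, and the log2 fold change of ZNF445 (ENSG00000185219, chromosome 3, 44431705 to 44477670) was 0.55 (adjusted p = 0.0111, SE 0.13). ZNF354C, a KRAB repressor, had 32.5, 31.9 and 30.3 CPM in the CCS1477 libraries, against 20.4, 22.7 and 21.1 CPM in the DMSO libraries. Here the libraries of each group lay close together and the groups were far apart. ZNF354C (ENSG00000177932, chromosome 5, 179060373 to 179083977) rose with a log2 fold change of 0.56 (adjusted p = 0.00705, SE 0.12). ZNF322, a C2H2 protein in which no KRAB match was found, had 47.1, 49.0 and 42.4 CPM in the CCS1477 libraries, against 32.1, 31.0 and 33.0 CPM in the DMSO libraries. ZNF322 (ENSG00000181315, chromosome 6, 26634383 to 26659752) rose with a log2 fold change of 0.53 (adjusted p = 0.00616, SE 0.11), again with no overlap. Of the 50-base words of its transcript, 28.1% also occur in other genes, chiefly its pseudogene ZNF322P1. The calls of these 3 genes held whichever library was left out and were lost on both TPM scales, with adjusted p from 0.111 to 0.309.

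ZNF713 had the largest rise. It is a KRAB gene with a CGG repeat in an intron, where the fragile site FRA7A lies. ZNF713 (ENSG00000178665, chromosome 7, 55887456 to 55942530) had 5.61, 5.73 and 5.26 CPM in the CCS1477 libraries, against 2.56, 2.91 and 3.19 CPM in the DMSO libraries. It was the lowest of the members that rose, and its groups were well apart. It rose 1.92-fold, with a log2 fold change of 0.94 (adjusted p = 0.0227, SE 0.25). Of its 50-base words 24.9% occur in other transcripts, and an unnamed gene on the same strand overlaps it with counts at 36.6% of its own. Without CCS1477 1, CCS1477 2, CCS1477 3 or DMSO 1 the adjusted p was 0.061, 0.0894, 0.0575 and 0.0804.

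ZNF483, which carries both a SCAN and a KRAB domain, had 36.1, 28.01 and 24.1 CPM in the CCS1477 libraries, against 18.5, 20.6 and 15.7 CPM in the DMSO libraries. The CCS1477 libraries differed among themselves but were all above DMSO, and ZNF483 (ENSG00000173258, chromosome 9, 111525159 to 111577844) rose with a log2 fold change of 0.68 (adjusted p = 0.0155, SE 0.17). It overlaps PTGR1 on the opposite strand, whose counts were 555% of its own and whose log2 fold change was -0.21 (adjusted p = 0.121). Its adjusted p was 0.0673 without CCS1477 1 and 0.0596 without DMSO 1. ZNF862, which joins a KRAB match to a domain derived from hAT transposons and had no C2H2 finger match, had 16.6, 20.9 and 15.2 CPM in the CCS1477 libraries, against 13.0, 10.3 and 12.03 CPM in the DMSO libraries. CCS1477 2 was its highest library, and ZNF862 (ENSG00000106479, chromosome 7, 149838375 to 149867479) rose with a log2 fold change of 0.58 (adjusted p = 0.035, SE 0.17). An unnamed antisense gene overlaps it with counts at 40.8% of its own. It was not called without CCS1477 1, CCS1477 2, DMSO 1 or DMSO 2, with adjusted p of 0.0629, 0.165, 0.0605 and 0.0797.

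Of the other members that rose, ZNF678 (ENSG00000181450, chromosome 1, 227563543 to 227677443) had 17.4, 13.5 and 18.3 CPM in the CCS1477 libraries, against 11.3, 11.5 and 10.8 CPM in the DMSO libraries. CCS1477 2 was nearer to DMSO than the other CCS1477 libraries, without overlap, and the log2 fold change was 0.55 (adjusted p = 0.0374, SE 0.16). It was not called without CCS1477 1, CCS1477 3, DMSO 1 or DMSO 3 (adjusted p 0.106, 0.145, 0.102 and 0.056), nor with GC content and length trends removed. The KRAB gene ZNF92 (ENSG00000146757, chromosome 7, 65373799 to 65401135) had 20.1, 19.8 and 18.3 CPM in the CCS1477 libraries, against 15.1, 12.8 and 14.0 CPM in the DMSO libraries, with a log2 fold change of 0.47 (adjusted p = 0.036, SE 0.14). Its groups did not overlap. It was called without DMSO 3, but without any other library its adjusted p was 0.0617 to 0.117, and it was not called with GC content and length trends removed. The KRAB gene ZNF248 (ENSG00000198105, chromosome 10, 37776526 to 37858106) had 18.5, 18.4 and 17.8 CPM in the CCS1477 libraries, against 13.4, 13.3 and 13.3 CPM in the DMSO libraries. Libraries of a group were nearly equal, and the log2 fold change was 0.45 (adjusted p = 0.037, SE 0.13). With any library left out its adjusted p was 0.0544 to 0.115, and neither DESeq2 nor a fit without the count filter called it.

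ZNF48 (ENSG00000180035, chromosome 16, 30378106 to 30400108), a gene with 12 finger matches and no KRAB match, had 36.5, 43.4 and 41.1 CPM in the CCS1477 libraries, against 28.1, 31.1 and 30.5 CPM in the DMSO libraries. It rose with a log2 fold change of 0.43 (adjusted p = 0.0229, SE 0.12), with no overlap of the groups. Its adjusted p was 0.118 without CCS1477 2, 0.0825 without CCS1477 3 and 0.0988 without DMSO 1. ZNF655, also known as VIK, a partner of the signalling protein VAV1, was the smallest rise. ZNF655 (ENSG00000197343, chromosome 7, 99558406 to 99576453) had 66.3, 60.2 and 61.5 CPM in the CCS1477 libraries, against 49.5, 49.9 and 50.7 CPM in the DMSO libraries. The log2 fold change was 0.32 (adjusted p = 0.0354, SE 0.10). Its DMSO libraries were nearly equal. It was not called without CCS1477 1, CCS1477 2, CCS1477 3, DMSO 1 or DMSO 2 (adjusted p 0.109, 0.0909, 0.0921, 0.116 and 0.0547). FAM200A overlaps it on the opposite strand with counts at 17.3% of its own.

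**Figure D2:**
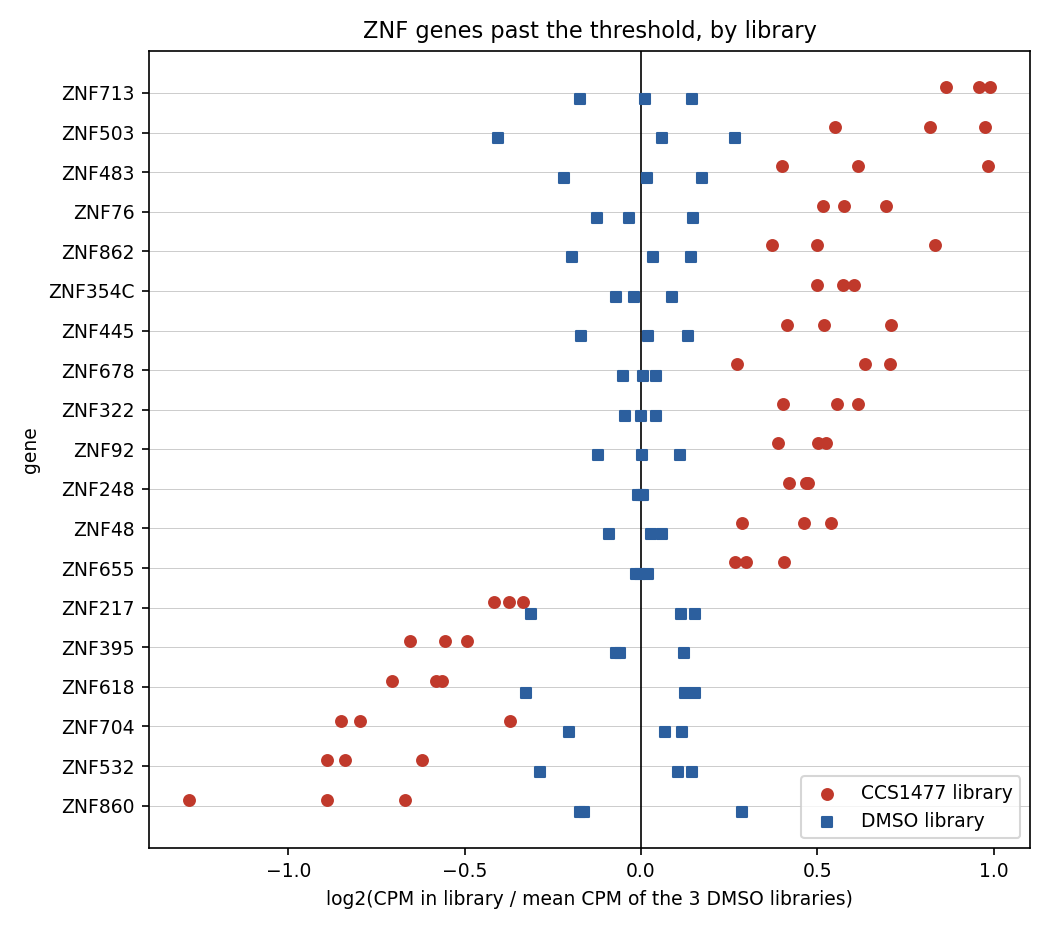
Log2 ratio of the CPM in each library to the mean CPM of the 3 DMSO libraries (x) for the 19 ZNF genes past the threshold (y), with CCS1477 libraries as red circles and DMSO libraries as blue squares. CCS1477 and DMSO libraries do not overlap for any of the 19, and they come closest for ZNF217, where DMSO 3 at 101.4 CPM lies just above CCS1477 1 at 99.7 CPM.

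Of the 6 members that fell, ZNF217, ZNF532 and ZNF395 are on the list of corepressor-linked and developmental factors, of which 2 others rose. ZNF217, an oncogene amplified in breast and other cancers that recruits CtBP and the CoREST complex, had 99.7, 97.0 and 94.3 CPM in the CCS1477 libraries, against 136, 140.0 and 101 CPM in the DMSO libraries. DMSO 3 was close to the CCS1477 libraries. ZNF217 (ENSG00000171940, chromosome 20, 53567065 to 53609907) fell to 0.770 of its DMSO level, with a log2 fold change of -0.38 (adjusted p = 0.045, SE 0.12). This call had the largest adjusted p of the 19. Without DMSO 3 the adjusted p was 0.000796, and without any other library it was 0.0994 to 0.195. RLE factors or library size alone also ended it. ZNF532, which with ZNF592 and ZNF687 forms a module of the ZMYND8 chromatin complex and is fused to NUTM1 in some NUT carcinomas, had 20.9, 17.3 and 17.9 CPM in the CCS1477 libraries, against 35.5, 34.5 and 26.3 CPM in the DMSO libraries. All CCS1477 libraries were well below DMSO. The log2 fold change of ZNF532 (ENSG00000074657, chromosome 18, 58862600 to 58986480) was -0.78 (adjusted p = 0.00378, SE 0.15). Its partners ZNF592 and ZNF687 had log2 fold changes of 0.12 (adjusted p = 0.454, SE 0.10) and 0.14 (adjusted p = 0.322, SE 0.09). For ZNF592 the means were 79.2 ± 3.99 CPM in CCS1477 and 73.0 ± 5.67 CPM in DMSO, and for ZNF687 they were 103 ± 6.72 CPM in CCS1477 and 93.1 ± 4.88 CPM in DMSO (SD, n = 3 each).

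ZNF395, a hypoxia-induced factor that binds the huntingtin promoter, and ZNF704, a gene of the same small family, both fell. ZNF395 (ENSG00000186918, chromosome 8, 28345590 to 28402701) had 55.1, 49.2 and 52.7 CPM in the CCS1477 libraries, against 84.3, 73.8 and 74.4 CPM in the DMSO libraries. The groups were well apart, and the log2 fold change was -0.57 (adjusted p = 0.00266, SE 0.10). FBXO16 lies on the same strand, and 41.7% of the 50-base words of ZNF395 occur in other transcripts, chiefly of FBXO16. FBXO16 itself had 4.6% of the counts of ZNF395 and a log2 fold change of -0.29 (adjusted p = 0.632). ZNF704 (ENSG00000164684, chromosome 8, 80628451 to 80874781) had 14.8, 11.0 and 10.6 CPM in the CCS1477 libraries, against 16.6, 20.1 and 20.8 CPM in the DMSO libraries. CCS1477 1 was nearest to DMSO. The log2 fold change of ZNF704 was -0.65 (adjusted p = 0.0214, SE 0.17), and its adjusted p was 0.0945 without CCS1477 2 and 0.0927 without CCS1477 3.

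ZNF618, which binds 5-hydroxymethylcytosine together with UHRF2, had 36.1, 36.5 and 33.1 CPM in the CCS1477 libraries, against 59.0, 60.1 and 43.1 CPM in the DMSO libraries. DMSO 3 lay nearest to the CCS1477 libraries. ZNF618 (ENSG00000157657, chromosome 9, 113876282 to 114056591) had a log2 fold change of -0.62 (adjusted p = 0.00843, SE 0.13), with an adjusted p of 0.0565 without DMSO 1. ZNF860, the only member with a KRAB match that fell, had 3.14, 2.39 and 3.66 CPM in the CCS1477 libraries, against 5.201, 7.10 and 5.16 CPM in the DMSO libraries. It was low in every library, though its groups did not overlap. ZNF860 (ENSG00000197385, chromosome 3, 31981750 to 31991723) had a log2 fold change of -0.93 (adjusted p = 0.0348, SE 0.27). It overlaps OSBPL10 on the opposite strand, whose counts were 1030% of its own, with a log2 fold change of 0.03 (adjusted p = 0.908). It was not called without CCS1477 1, CCS1477 2, CCS1477 3, DMSO 1 or DMSO 2 (adjusted p 0.0814, 0.14, 0.054, 0.0681 and 0.118). On both TPM scales 0 of the 6 falls passed.

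By role, the 10 factors of RNA and ribosomes are too few for a count to be read on its own. None was called by edgeR, where 17.9% of all tested genes were, none had an unadjusted p under 0.05, where 31.7% of all tested genes did, and their median log2 fold change was 0.06. The largest value was that of ZNF622, the human relative of a yeast factor that recycles export proteins from large ribosomal subunits, with 45.8 ± 8.29 CPM in CCS1477 and 37.3 ± 2.57 CPM in DMSO and a log2 fold change of 0.30 (adjusted p = 0.159, SE 0.14). ZNF598, the ubiquitin ligase that marks collided ribosomes, had 85.5 ± 7.18 CPM in CCS1477 and 75.4 ± 6.84 CPM in DMSO and 0.18 (adjusted p = 0.266, SE 0.10) on the log2 scale. The double-stranded RNA-binding protein ZNF346 had 18.3 ± 4.07 CPM in CCS1477 and 17.9 ± 2.43 CPM in DMSO, with 0.04 (adjusted p = 0.915, SE 0.18). All 10 intervals lay within 2-fold.

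Among 13 promoter-binding activators and regulators, ZNF76 rose and the other 12 were not called, with a list median of 0.02. The share higher, 7.69%, was near the 7.23% of all tested genes. ZNF24 had 277, 263 and 245 CPM in the CCS1477 libraries, against 211, 252 and 219.9 CPM in the DMSO libraries. CCS1477 3 was below DMSO 2, and the log2 fold change was 0.20 (adjusted p = 0.168, SE 0.09). ZNF410, which activates the chromatin remodeller gene CHD4, had 0.20 (adjusted p = 0.2, SE 0.10), the G-rich sequence binder ZNF281 had -0.01 (adjusted p = 0.973, SE 0.12), and ZNF148 had 0.02 (adjusted p = 0.945, SE 0.12). ZNF341, which drives STAT3 transcription, was low, with 7.47 ± 2.09 CPM in CCS1477 and 7.87 ± 0.762 CPM in DMSO and a log2 fold change of -0.07 (adjusted p = 0.866, SE 0.23). Among 21 listed corepressor-linked and developmental factors, 16 were members. ZNF503 and ZNF445 rose, ZNF532, ZNF395 and ZNF217 fell, and 11 were not called, with a median of -0.03. ZNF423, ZNF365, ZNF750, ZNF608 and ZNF521 were below the count minimum. The SUMO ligase ZNF451 had 0.22 (adjusted p = 0.224, SE 0.12), and ZNF516 had -0.18 (adjusted p = 0.315, SE 0.11). Of the 3 role lists, that of corepressor-linked factors had the widest range of values. Its 5 calls of 16 (31.2%) stand beside 17.9% of all tested genes called in either direction. At an unadjusted p under 0.05 by edgeR it likewise had 5 (31.2%), near the 31.7% of all tested genes. These 16 genes are too few for a count to be read on its own.

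**Figure D3:**
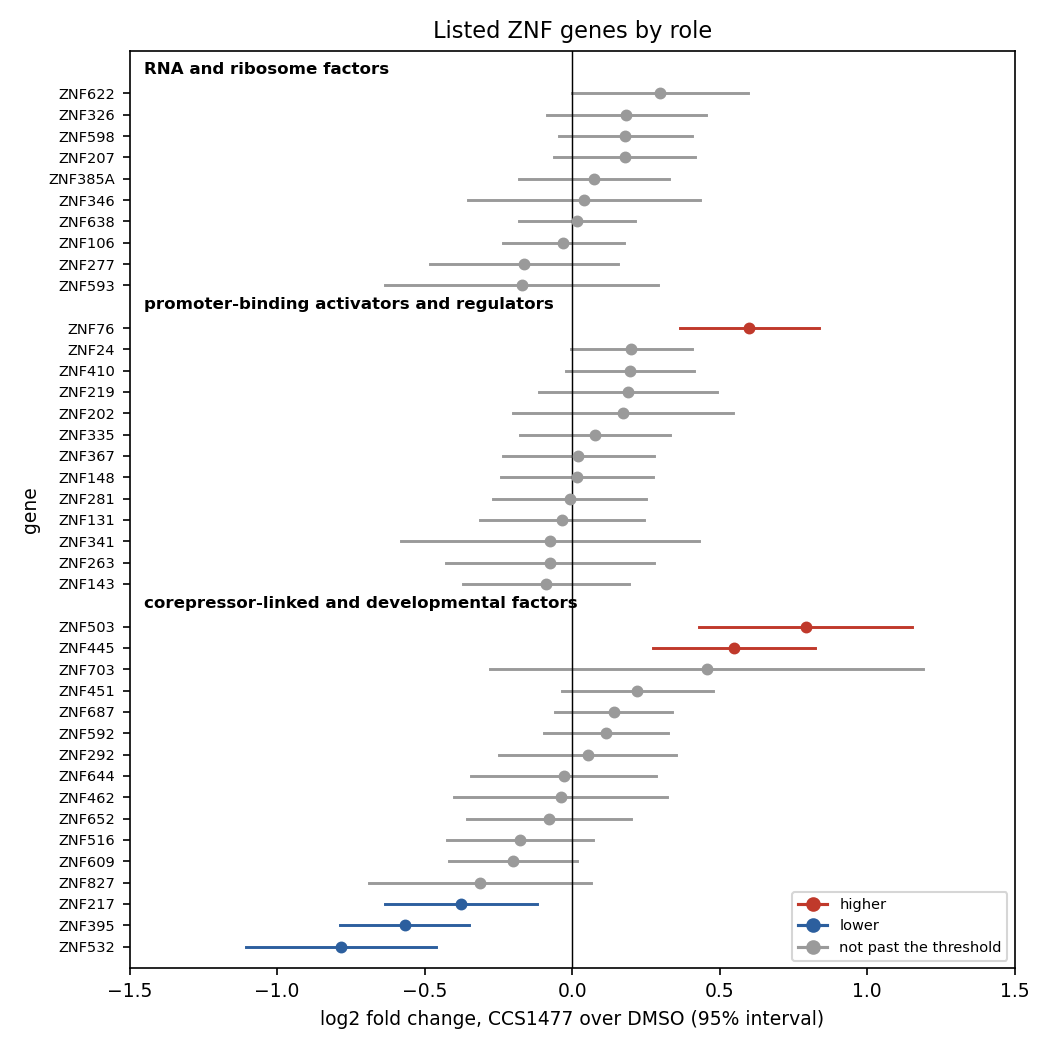
Log2 fold change, CCS1477 over DMSO, with its 95% interval (x) for the tested members of 3 role lists (y). Red marks genes higher in CCS1477, blue marks genes lower and grey those not past the threshold; the 10 RNA and ribosome factors are all grey, and the corepressor-linked list runs from -0.78 for ZNF532 to 0.79 for ZNF503.

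Members with a KRAB match had a higher median than those without a match. The letter pattern searched can miss divergent domains, so the group without a match may hold KRAB genes. A KRAB match was found in the translated GENCODE 29 transcripts of 89 of 215 members, and ZNF883 had no translated transcript. Of 88 tested members with a match, 8 were higher and 1 was lower, the median log2 fold change was 0.17 and 66 values were above 0 (75.0%). The share higher with a match, 9.09%, was near the 7.23% of all tested genes, and the share lower was 1.14%, where 10.7% of all tested genes were lower. Of 125 without a match, 5 were higher and 5 lower, the median was 0.04 and 56.8% were above 0. CCS1477 and DMSO did not overlap in 25 members with a match that were higher and 3 that were lower, and in 16 and 11 without, where 16.5% and 19.3% of all tested genes did so in the higher and lower direction. Genes with a match also had lower levels, with a median of 7.28 TPM against 11.5 TPM. The difference between these groups of genes was not tested. Without DMSO 1, KRAB members called higher numbered 2, the fewest with any library left out, where 555 of all 15205 tested genes were higher.

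Transcripts of members with a KRAB match had a lower GC content. Its median was 42.1% with a match, 48.0% without, and 48.7% over all tested genes. In quintiles of tested genes from low to high GC content, the KRAB members had medians of 0.20, 0.07, 0.12, 0.24 and 0.26, with 35, 22, 15, 8 and 8 genes. The medians of members without a match were 0.06, -0.03, 0.025, -0.07 and 0.10 in the same quintiles, and those of all tested genes 0.03, -0.0093, -0.01, -0.05 and 0.03. The KRAB median was above the other two in each quintile, and the 2 quintiles of highest GC content hold few KRAB members. With trends of GC content and length removed, the KRAB median was 0.15, against 0.17 in the main fit. The part of GC content in the difference was not tested.

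**Figure D4:**
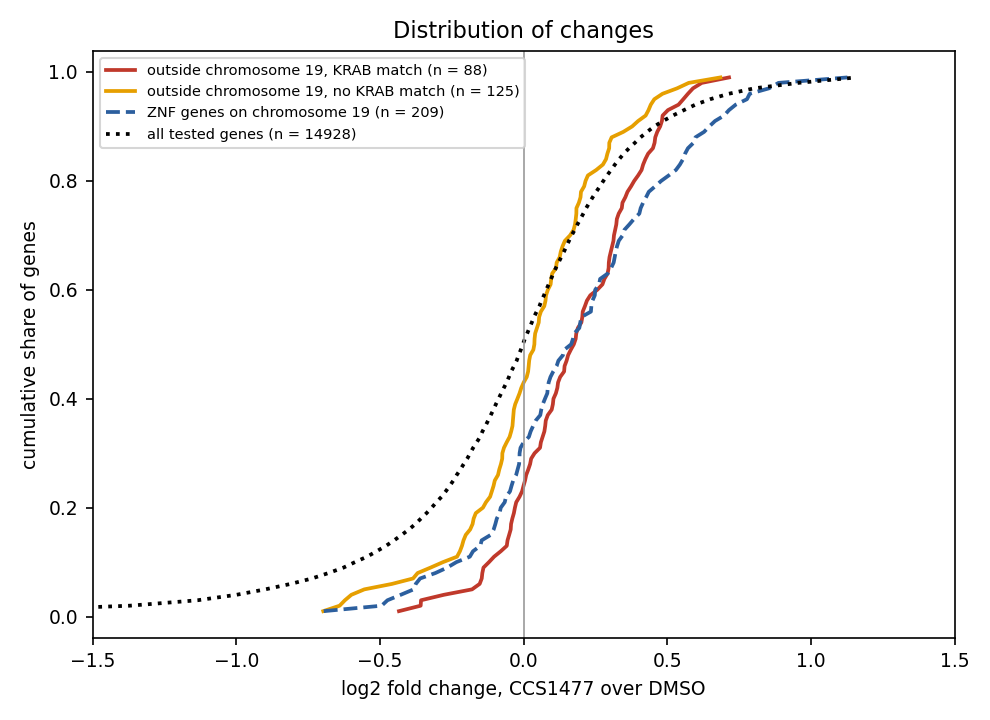
Cumulative share of genes (y) by log2 fold change, CCS1477 over DMSO (x), drawn from 99 percentiles for members with and without a KRAB match (red and orange), ZNF genes on chromosome 19 (blue dashes) and all tested genes (black dots). The red curve lies to the right of the orange one over most of its length, with medians of 0.17 and 0.04, and all ZNF curves have a shorter lower tail than that of all genes.

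Calls were counted by position in the genome as well. Runs of at least 3 members that start within 500 kb of each other gave 18 genomic clusters with 92 members, of which 91 were tested. In the clusters 7 members were higher and 0 were lower by edgeR at the threshold, the median was 0.14 and 74.7% were above 0. The share higher, 7.69%, was near the 7.23% of all tested genes, while 10.7% of all tested genes were lower. By DESeq2 likewise 0 clustered members were lower, and at an unadjusted p under 0.05 there were 1. The CCS1477 libraries lay wholly below DMSO for 1 clustered member, where 19.3% of all tested genes did so, and wholly above for 27, where 16.5% did. Of 123 members outside the clusters 6 were higher and 6 lower, the median was 0.04, 56.9% were above 0, and 14 and 13 had groups apart in the higher and lower direction. Members with both a KRAB match and a cluster position had the highest median, at 0.18 with 80.7% of 57 above 0, and those with neither the lowest, at 0.02 with 53.8% of 91. Without DMSO 1 the clustered members called higher numbered 2, where 555 of all 15205 tested genes were higher.

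The cluster with ZNF92 on chromosome 7, from 64307459 to 65401135, holds 7 members, 6 of them with a KRAB match, and had a median of 0.31 with 6 values above 0. ZNF92 rose, and the neighbours were not called. ZNF273 had 9.64 ± 1.47 CPM in CCS1477 and 6.90 ± 1.04 CPM in DMSO with a log2 fold change of 0.48 (adjusted p = 0.127, SE 0.20), and ZNF107 had 23.9 ± 1.79 CPM in CCS1477 and 19.2 ± 2.12 CPM in DMSO with 0.31 (adjusted p = 0.136, SE 0.14) (SD, n = 3 each). For both of these and for ZNF138 the CCS1477 libraries were all above DMSO. ZNF117 was the one member with a negative value, -0.13 (adjusted p = 0.779, SE 0.26). The second cluster on that chromosome with many members, around ZNF862, has 10. There ZNF786 had 12.4 ± 0.684 CPM in CCS1477 and 8.78 ± 1.04 CPM in DMSO and 0.50 (adjusted p = 0.0606, SE 0.17), while ZNF425 had -0.36 (adjusted p = 0.44, SE 0.29). These values differed in sign, and neither gene passed the threshold.

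At the end of chromosome 12, from 132918306 to 133214831, 7 KRAB members had a median of 0.14 and none was called. Of the 7, 3 had an unadjusted p under 0.05 by edgeR, where 31.7% of all tested genes did. ZNF84 had 29.7, 23.2 and 22.3 CPM in the CCS1477 libraries, against 17.3, 20.4 and 16.9 CPM in the DMSO libraries. ZNF26 had 15.3, 16.5 and 17.9 CPM in the CCS1477 libraries, against 11.4, 12.3 and 13.6 CPM in the DMSO libraries. Both had groups that did not overlap, and their log2 fold changes were 0.46 (adjusted p = 0.0551, SE 0.15) and 0.41 (adjusted p = 0.0789, SE 0.15), short of the threshold. ZNF605, the first gene of the same run, had -0.04 (adjusted p = 0.875, SE 0.12). On chromosome 3, around ZNF445, ZNF502 had 0.71 (adjusted p = 0.149, SE 0.32) at a low level of 5.26 ± 1.09 CPM in CCS1477 and 3.25 ± 1.19 CPM in DMSO, and ZNF501 had -0.18 (adjusted p = 0.808, SE 0.41). On chromosome 5, ZNF354C rose while its relative ZNF354A had 12.5 ± 0.888 CPM in CCS1477 and 13.0 ± 1.76 CPM in DMSO with -0.05 (adjusted p = 0.87, SE 0.16) and ZNF354B 0.36 (adjusted p = 0.344, SE 0.24).

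**Figure D5:**
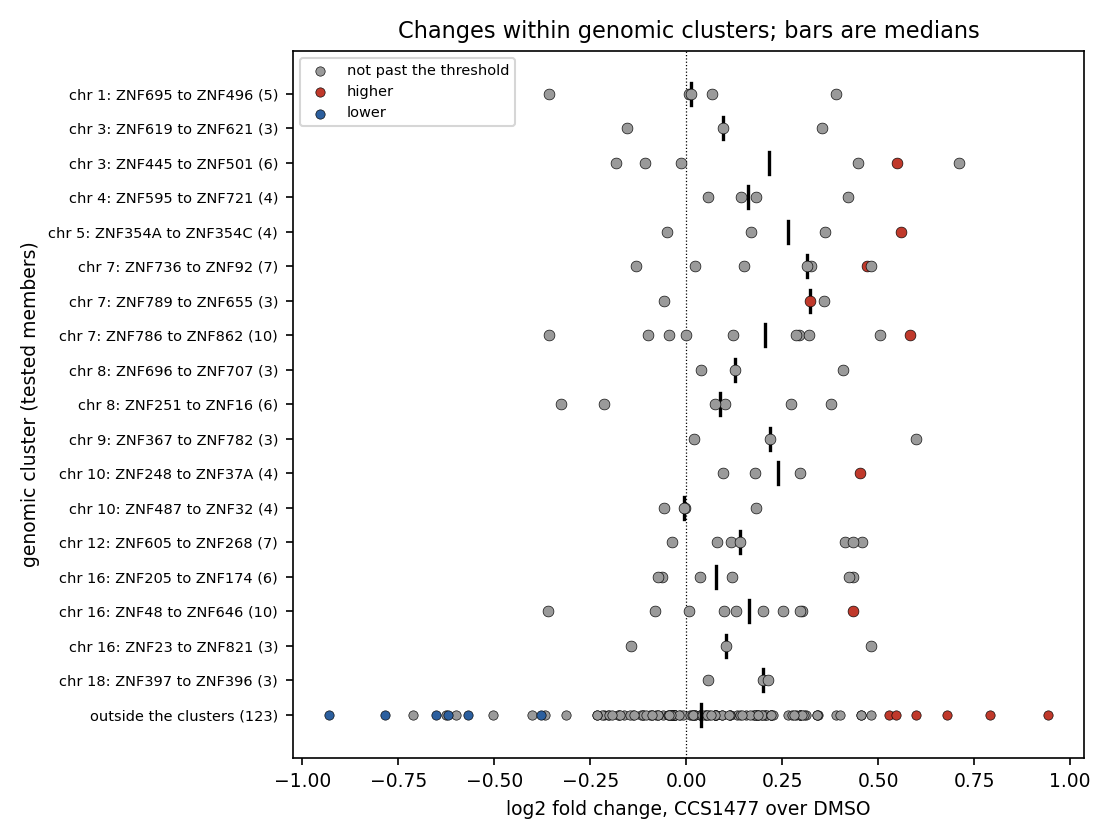
Log2 fold change, CCS1477 over DMSO (x), of each tested member in 18 genomic clusters named by their first and last member (y), and of the 123 members outside them. Vertical bars are medians, red points are members higher and blue points members lower; all 6 blue points lie outside the clusters.

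Genes next to the members that rose were not called higher. None of the 13 members that rose had an adjacent tested gene called higher, where 221 of the 1079 genes called higher over the genome did (20.5%). With 13 members that rose and 6 that fell, such shares cannot be read on their own. Of the 6 that fell, 3 had an adjacent gene called lower, against 33.3% of the 1597 lower genes. These were CYP24A1 beside ZNF217, encoding the enzyme that inactivates vitamin D, with a log2 fold change of -1.10 (adjusted p = 7.44e-05), ZBTB10 beside ZNF704 with -0.55 (adjusted p = 0.0039), and RGS3 beside ZNF618 with -0.42 (adjusted p = 0.0162), all by the quasi-likelihood test of edgeR with Benjamini-Hochberg adjustment.

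ZNF genes on chromosome 19, chosen by the same name and count criteria, gave 12 higher (5.74%) and 2 lower (0.957%) of 209 tested, with a median of 0.17 and 67.9% above 0. Their log2 fold changes reached 1.97, while the largest outside chromosome 19 was 0.94. The 38 ZBTB genes, zinc finger proteins with a BTB domain, had 3 higher and 4 lower with a median of -0.02, and the 23 ZSCAN and ZKSCAN genes 1 higher and 0 lower with a median of 0.11. These counts stand beside 7.23% higher and 10.7% lower of all tested genes, and differences between the families were not tested. Among 16 silencing partners of KRAB proteins, TRIM28 rose with 502 ± 55.5 CPM in CCS1477 and 360 ± 36.7 CPM in DMSO and a log2 fold change of 0.48 (adjusted p = 0.00903, SE 0.11). Its TPM averaged 325 in CCS1477 and 303 in DMSO, and by limma its change was 0.14 on log2(TPM + 1) (adjusted p = 0.733) and 0.15 on log2(TPM + 0.1), without a call on either scale. Without CCS1477 3 its adjusted p by edgeR was 0.0609. The heterochromatin protein gene CBX5 had 397 ± 12.4 CPM in CCS1477 and 191 ± 13.7 CPM in DMSO (SD, n = 3 each), and rose by 1.05 on the log2 scale, with a call in all 15 alternatives. The other 14, SETDB1 at -0.01 among them, were not called.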

How the data were processed

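Poly-A RNA-seq of DU145 was used, with groups and replicate numbers from the sample titles. The authors deposited estimated counts per gene (not normalized, with 10.2% to 10.7% of the nonzero values of a library not whole) and TPM for 60623 gene IDs. Trimmomatic 0.39 appears, without settings, in the submitters' processing notes. Of the listed prostate luminal markers, some are not reported here. Not given in the sources used here were the aligner, quantifier, genome build and strand setting, and coordinates of genes are as in the deposited table.

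Estimated counts were rounded. Library totals were 8286883 to 11956748, so that a floor of 3 counts, covering counting error only, was 0.251 to 0.362 CPM. Genes were filtered with filterByExpr (minimum count 10, minimum total 15), scaled by TMM and tested with edgeR 4.0.16 in R 4.3.3 (quasi-likelihood test, no covariates), with Benjamini-Hochberg adjustment over 14928 genes. The procedure was tested on simulated data. CPM are counts scaled to library size with TMM factors, and standard errors come from the test statistic. Alternatives used DESeq2 1.42.0 and limma 3.58.1 on log2(TPM + 1) and log2(TPM + 0.1).

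Members and lists were chosen with earlier results of these data known. Named members are the 12 largest rises and falls among called members averaging at least 2 CPM, the 6 highest by TPM, and those of role lists and described clusters. ZNF655, the 13th rise, ZNF883, and the genes next to or overlapping members were named after their values were seen. The RefSeq proteins foreseen for domain searches were not used here. KRAB and C2H2 matches came from translated GENCODE 29 coding transcripts by fixed letter patterns, which can miss divergent domains. Promoters are those of RefSeq, GRCh38.p14.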

Additional observations from a re-analysis of the deposited data

How the results depend on the processing

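The members' median log2 fold change was above 0 in all alternatives run. It was 0.13 with library size alone, 0.14 on log2(TPM + 1), 0.15 on log2(TPM + 0.1), 0.096 without a filter and 0.094 at a minimum count of 30. The median of all tested genes was 0.045, 0.056, 0.062, -0.0062 and 0.0073 in the same order, against -0.0030 in the main fit. Leaving out 1 library gave medians of 0.086 to 0.13, 5 to 16 members higher and 3 to 8 lower. On both TPM scales 3 members were higher and 0 lower, with 293 and 427 of all genes higher and lower on log2(TPM + 1) and 280 and 410 on log2(TPM + 0.1). Members with a KRAB match and clustered members then gave 0 calls, with KRAB medians of 0.17 and 0.21 and clustered medians of 0.18 and 0.22. Library size alone gave a KRAB median of 0.22, and 11 clustered members higher with a median of 0.19. Of all 14928 tested genes it gave 1456 higher and 1361 lower. Removal of GC content and length trends, chosen after seeing the data, gave 19 higher and 7 lower members, a KRAB median of 0.15 and 11 clustered members higher. Calls over all genes also grew with these trends removed, to 1504 higher and 2005 lower of 14831, against 1079 and 1597 in the main fit. The causes of these shifts were not tested. The alternatives for TRIM28 and CBX5 were also added after seeing the data.

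Leaving out 1 library gave 2 to 9 KRAB members higher and 0 to 1 lower, with medians of 0.14 to 0.24, and 2 to 9 clustered members higher and 0 lower, with medians of 0.13 to 0.17. Over all genes it gave 487 to 1311 higher and 925 to 1772 lower. Deviations of same-numbered libraries had correlations of -0.0879, -0.205 and 0.00782, and those of other pairs ran from -0.206 to 0.289. With 3 libraries per group, such values cannot decide whether the numbers mark a pairing. With the replicate number as a block, 7 members were higher and 4 lower, with 3 KRAB members higher and 0 lower and 3 clustered members higher. Of all 14928 tested genes 799 were then higher and 1306 lower, against 1079 and 1597 without the block.

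A few uncalled values near 0 changed sign. ZNF664 was 0.030 with library size alone and -0.034 to 0.016 with 1 library left out, above 0 without CCS1477 3 or DMSO 2. ZNF593 was -0.34 to 0.018, above 0 without CCS1477 1 or DMSO 3. ZNF638 was -0.034 to 0.078, below 0 without CCS1477 1 or DMSO 3, and -0.030 with GC content and length trends removed. Depth limits the 70 tested members of lowest TPM most, where 55 intervals lay within 2-fold, against 71 of the 72 of highest TPM.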

Other observations

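By chromosome, the 7 members on chromosome 15 differed in sign from most others: 1 of 7 had a log2 fold change above 0 and the median was -0.14, with none past the threshold. On chromosome 16, 21 of 26 members were above 0, with a median of 0.12 and 1 member higher. Over all tested genes 49.6% were above 0. Chromosome 7 held 4 of the 13 members that rose, from 27 tested (14.8%), where 7.23% of all tested genes were higher. Chromosome 8 held 2 of the 6 that fell, from 14 (14.3%), near the 10.7% of all tested genes that were lower. Differences between chromosomes were not tested.

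By the number of C2H2 fingers, of which members had a median of 9 and at most 33, none of the 28 members with at least 15 was called in either direction by edgeR, with 2 at an unadjusted p under 0.05, where 17.9% of all tested genes were called and 31.7% had such a p, and 3 of them had CCS1477 libraries wholly above DMSO. Members with 10 to 14 fingers gave 6 higher and 2 lower of 64, those with 5 to 9 gave 5 and 1 of 73, and those with 1 to 4 gave 0 and 3 of 41, beside 7.23% higher and 10.7% lower of all tested genes. Differences between these bins were not tested. Their medians were 0.13, 0.10, 0.06 and 0.06. Of 7 members with no finger match, ZNF503 and ZNF862 rose.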
